A study of Mus musculus with 20 samples.

Results

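The genes described here code for non-collagen proteins of the extracellular matrix, and 10 were chosen by symbol from the 30691 named lines of the deposited table. They are fibronectin (Fn1), tenascin C (Tnc), periostin (Postn), elastin (Eln), fibrillin 1 (Fbn1), versican (Vcan), hyaluronan and proteoglycan link protein 1 (Hapln1), asporin (Aspn), osteoglycin (Ogn) and collagen triple helix repeat containing 1 (Cthrc1). The rule names the genes and uses no threshold on measured values, though the list was drawn up with earlier results of these data known. All 10 passed the filter on low values that left 21658 genes for testing. RNA was measured by sequencing in whole lungs of mice. The groups were wild-type mice in normoxia (WT normoxia, 21% oxygen, 6 libraries), wild-type mice in chronic hypoxia (WT hypoxia, 10% oxygen, 5 libraries), VIPKO mice in normoxia (VIPKO normoxia, 4 libraries) and VIPKO mice in chronic hypoxia (VIPKO hypoxia, 5 libraries), each exposed for 4 weeks. VIPKO stands for loss of the gene of vasoactive intestinal peptide (Vip). The wild-type mice are given as C57BL/6, and the titles and design text call the other genotype a knockout while its genotype field says knockdown. The labels give no age and no other allele, and whether each library is a separate animal is not said, so that p-values speak only of the spread among libraries, which may be technical.

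The lung matrix gives the airspaces and vessels their strength and recoil. Elastic fibres have a core of elastin on a scaffold of fibrillin microfibrils. Fibronectin and the matricellular glycoproteins tenascin C and periostin bind integrins and are known to be made in quantity where tissue is being remodelled, including the walls of small pulmonary arteries in pulmonary hypertension. Versican is a large proteoglycan that binds hyaluronan, and the link protein made from Hapln1 holds that complex together. Asporin and osteoglycin are small leucine-rich proteoglycans, which bind collagen or growth factors, and Cthrc1 is a secreted protein of activated fibroblasts and injured arteries. In a bulk sample, more cells of a type and more RNA per cell cannot be told apart.

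Depth, estimated from the smallest step of the values in each library, ran from 4.96 M reads in WT hypoxia 4 to 56.7 M, with a median of 17.8 M. The Vip signal ran from 0 to 93.0 in WT normoxia, from 0 to 6.77 in WT hypoxia, from 1.16 to 5.54 in VIPKO normoxia and from 1.08 to 106 in VIPKO hypoxia. The highest value was in the library labelled VIPKO hypoxia 4 and goes against its label, so each genotype direction here rests on labels that Vip did not bear out. WT hypoxia 5 stood apart in skeletal muscle markers (10 genes, summed signal 35440, against at most 1086 elsewhere), and VIPKO hypoxia 3 in thymic markers (8 genes, 17180, against at most 92.2). VIPKO normoxia 2, VIPKO normoxia 3 and VIPKO hypoxia 2 lay lowest on the first principal component. The summed signal of mitochondrial ribosomal RNA had medians of 728 in WT normoxia, 863 in WT hypoxia, 18150 in VIPKO normoxia and 5851 in VIPKO hypoxia. Its part in the genotype differences was not tested. Markers of lung epithelium, endothelium, fibroblasts and smooth muscle were present in every library, with none of these markers at 0. Of the 12 cartilage markers 10 were in the table, and their summed signal was only 41.9 to 109.9.

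Changes are log2 fold changes ± SE on the log2(signal + 1) scale from 1 limma fit over all 20 libraries, with Benjamini-Hochberg adjusted p-values over the 21658 genes and a threshold of 0.05. The log scale with a pseudocount of 1 understates changes of low genes. A gene "rose" or "fell" only where it passed that threshold. Other values are deposited signal, with SD between libraries. Values listed for a group of 4 or 5 libraries follow the replicate numbers, and for WT normoxia, with 6, the lowest, median and highest are given.

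The plainest pattern was in VIPKO hypoxia. Hapln1, Aspn, Cthrc1 and Fn1 rose there against WT normoxia with no overlap between the libraries of these groups. By means, 7 of the 10 genes were highest in VIPKO hypoxia, but the share over all genes was not counted. For Tnc the single library VIPKO hypoxia 3 (1797) raised that mean. For Ogn the means were close, at 4965 in VIPKO hypoxia and 4545 in VIPKO normoxia. Postn and Vcan had their highest mean in VIPKO normoxia, and Fbn1 in WT normoxia. Levels can be compared between genes only per length of exons. On that scale Ogn and Fn1 were the highest, with medians over the 20 libraries of 1751 and 1235 signal per kb of exon. Eln (635), Postn (503) and Fbn1 (445) followed. The lowest were Aspn (139), Tnc (83.7), Cthrc1 (28.2), Vcan (27.0) and Hapln1 (3.27), so 2 of the 4 genes that rose, Hapln1 and Cthrc1, were among the 3 lowest. Fn1, which rose too, was the second highest.

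**Figure D1:**
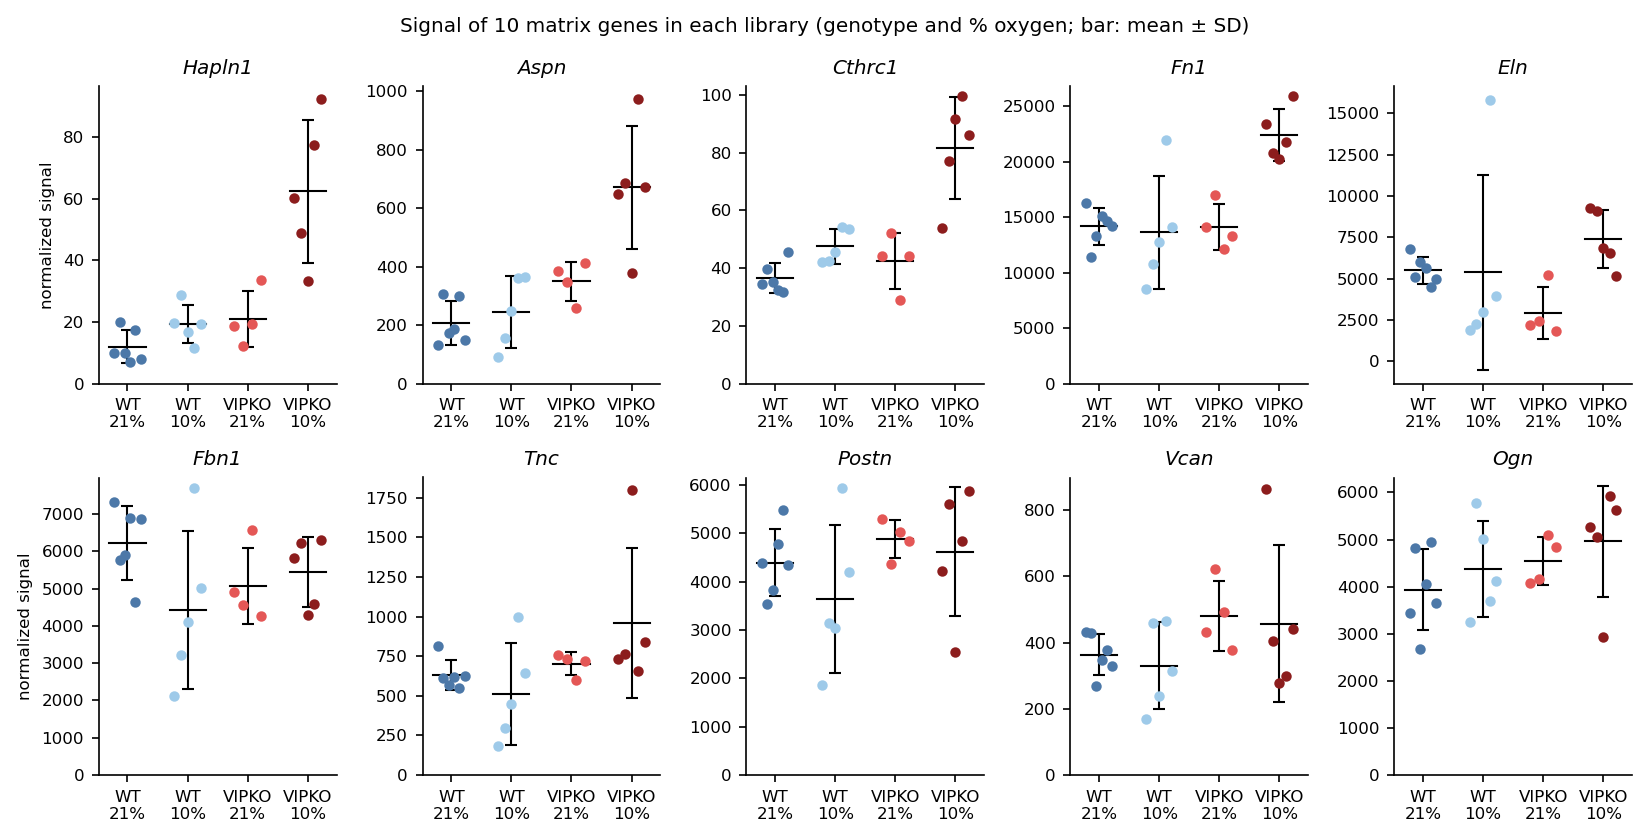
Deposited signal of the 10 matrix genes (vertical axes, linear) in each of the 20 libraries (points), by genotype and % oxygen, with bars for the mean ± SD of 6, 5, 4 and 5 libraries. In VIPKO at 10% oxygen Hapln1 lies between 33.4 and 92.3 and Fn1 between 20186 and 25934, above every WT normoxia library, and the single high Eln point in WT at 10% oxygen is WT hypoxia 4 at 15825.

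Hapln1 codes for the link protein that joins hyaluronan to versican. Its gene lies on chromosome 13, from 89539796 to 89611652 on the plus strand (GRCm38, mm10), 43.7 kb from Vcan, which is on the minus strand. The signal of Hapln1 in WT normoxia had a lowest value of 6.89, a median of 9.96 and a highest value of 19.8. The WT hypoxia values were 19.8, 28.8, 16.6, 11.7 and 19.4, and the VIPKO normoxia values were 18.6, 12.2, 19.2 and 33.8. The VIPKO hypoxia values were 60.3, 48.8, 33.4, 77.6 and 92.3. Every VIPKO hypoxia library exceeded every WT library, and only VIPKO hypoxia 3, the thymic library, fell within the range of VIPKO normoxia. The means were 11.98 ± 5.33 (SD, n = 6), 19.2 ± 6.23 (SD, n = 5), 20.9 ± 9.12 (SD, n = 4) and 62.5 ± 23.2 (SD, n = 5) for WT at 21% and 10% oxygen and then VIPKO at 21% and 10%. The WT hypoxia and VIPKO normoxia means lay within each other's spread. These levels are low, resting on 3 to 167 estimated reads per library, which limits the precision of the lower groups.

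Versican is the hyaluronan-binding proteoglycan that the link protein holds in place, and its gene passed in no comparison. The Vcan gene (chromosome 13, 89655312 to 89742509) had a signal of 268 at the lowest, 362 at the median and 431 at the highest in WT normoxia, and of 170.2, 460.2, 238, 466.5 and 315 for WT hypoxia. The VIPKO normoxia values were 433, 623, 492 and 377, and the VIPKO hypoxia values were 864, 403, 279, 298 and 440.0. The groups overlapped in all comparisons, and VIPKO hypoxia 1 alone was high. Its change from WT normoxia to VIPKO hypoxia was 0.22 ± 0.27 (95% confidence interval -0.34 to 0.78, adjusted p = 0.629), against 2.30 ± 0.33 for Hapln1. Without VIPKO hypoxia 1 the value for Vcan was -0.04.

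Asporin and osteoglycin are encoded 40.5 kb apart on chromosome 13, both on the plus strand and both inside the locus of Cenpp, a centromere protein gene on the other strand. Aspn runs from 49544443 to 49567565 and Ogn from 49608046 to 49624501 (GRCm38, mm10). The 250 bases before the start of each gene are shown because Aspn passed the test between VIPKO hypoxia and WT normoxia and its neighbour Ogn did not with equal library weights, though the difference between the genes was not tested. They come from RefSeq (GRCm38.p6), which gave a window for 7 of the 10 genes, and lie before the RefSeq start. That start is 49544443 for Aspn, as above, and 49608015 for Ogn, which differs from the 49608046 given above. Capitals mark matches to TATAAA or its reverse complement TTTATA, which overlap in Ogn, to CACGT in Aspn and to GGAATG in Ogn. CACGT is the reverse complement of ACGTG, the core that hypoxia-inducible factors bind, and GGAATG is a motif of TEAD factors. The windows lie at chr13:49544193-49544442 for Aspn and chr13:49607765-49608014 for Ogn, both plus strand.
Aspn: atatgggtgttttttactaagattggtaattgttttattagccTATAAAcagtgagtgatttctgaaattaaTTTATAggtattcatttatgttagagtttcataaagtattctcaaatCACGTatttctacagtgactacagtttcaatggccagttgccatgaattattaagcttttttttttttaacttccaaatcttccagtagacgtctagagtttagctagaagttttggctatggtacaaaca
Ogn: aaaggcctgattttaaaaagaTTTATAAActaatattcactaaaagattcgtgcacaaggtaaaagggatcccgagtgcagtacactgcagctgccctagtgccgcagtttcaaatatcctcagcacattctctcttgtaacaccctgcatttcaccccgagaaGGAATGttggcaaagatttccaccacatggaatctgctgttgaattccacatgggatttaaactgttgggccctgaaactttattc

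The match to CACGT in Aspn lay 131 to 127 bases before its RefSeq start, and the match to GGAATG in Ogn 86 to 81 bases before its own. Searched on both strands, ACGTG or its complement was found in 16.6% of 32851 windows of this length, GGAATG in 12.6% and TATAAA in 12.4%. GCGTG (28.2% of windows), TGACG (17.8%) and TGANTCA (6.75%) were searched too and had no match in these windows. The letters G and C made up 30% of the Aspn window and 42% of the Ogn window. A match describes the letters only.

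The Aspn signal had a lowest value of 132, a median of 179 and a highest value of 306 in WT normoxia. It was 91.0, 157, 249, 361.5 and 364 for WT hypoxia, and 384, 346, 259 and 412.2 for VIPKO normoxia. The VIPKO hypoxia values were 647, 685, 379.7, 974 and 671. All VIPKO hypoxia libraries were above all WT libraries, and VIPKO hypoxia 3 was the only one inside the VIPKO normoxia range. In ascending order the means were those of WT normoxia (207 ± 76.1, SD, n = 6), WT hypoxia (245 ± 122, SD, n = 5), VIPKO normoxia (350.5 ± 66.4, SD, n = 4) and VIPKO hypoxia (671 ± 211, SD, n = 5), where the first 2 lay within each other's spread.

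Ogn had the smallest ratio of highest to lowest library among the 10 genes, 2.21. Its signal was 2677 at the lowest, 3854 at the median and 4943 at the highest in WT normoxia, 3246, 5769.6, 5009.5, 3697 and 4117 for WT hypoxia, and 4076, 4169, 5096 and 4839.9 for VIPKO normoxia. The VIPKO hypoxia values were 5271, 5055, 2939.8, 5923 and 5634.5, so that 4 libraries were high and VIPKO hypoxia 3 was low. The 4 groups overlapped. Its change from WT normoxia to VIPKO hypoxia was 0.33 ± 0.18 (95% confidence interval -0.05 to 0.70, adjusted p = 0.245), against 1.71 ± 0.32 for its neighbour Aspn. With library weights estimated in limma Ogn passed, at 0.50 ± 0.14 (adjusted p = 0.0149), where 4684 of the 21658 genes did.

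Cthrc1 (chromosome 15, 39076932 to 39087121) codes for a secreted glycoprotein of activated fibroblasts. Its signal was 31.8 at the lowest, 34.9 at the median and 45.6 at the highest in WT normoxia, and 42.0, 42.3, 45.7, 54.4 and 53.7 for WT hypoxia. The VIPKO normoxia values were 44.3, 52.1, 28.8 and 44.2, and the VIPKO hypoxia values were 53.8, 77.1, 91.7, 99.6 and 86.3. VIPKO hypoxia was above both normoxia groups in every library, and VIPKO hypoxia 1 was the only library of that group inside the WT hypoxia range. The mean was 81.7 ± 17.6 (SD, n = 5) in VIPKO hypoxia, against 36.5 ± 5.26 (WT normoxia, SD, n = 6), 47.6 ± 6.07 (WT hypoxia, SD, n = 5) and 42.4 ± 9.75 (VIPKO normoxia, SD, n = 4). It rested on 14 to 221.5 estimated reads per library.

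Fibronectin is the adhesive glycoprotein on which other matrix fibres are laid down. The Fn1 gene (chromosome 1, 71585520 to 71653200) had a signal of 11399 at the lowest, 14425 at the median and 16292.5 at the highest in WT normoxia, and of 8519, 10786, 12707, 21943 and 14139 for WT hypoxia. The VIPKO normoxia values were 14103, 17011, 12161 and 13301.5, and the VIPKO hypoxia values were 23414.5, 20769, 20186, 21749 and 25934. All VIPKO hypoxia libraries lay above both normoxia groups, and among WT hypoxia libraries WT hypoxia 4 alone reached their range. The means of the other 3 groups lay within each other's spread, at 14163 ± 1681.5 (WT normoxia), 13619 ± 5109.6 (WT hypoxia) and 14144 ± 2070.4 (VIPKO normoxia), against 22411 ± 2319 in VIPKO hypoxia (SD, n = 6, 5, 4 and 5).

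The matricellular genes Tnc and Postn overlapped between all groups. Tnc (chromosome 4, 63959785 to 64047015) had a signal of 547 at the lowest, 615 at the median and 812 at the highest in WT normoxia, 182, 296, 445, 999 and 643 for WT hypoxia, and 759, 735, 599.9 and 721 for VIPKO normoxia. The VIPKO hypoxia values were 731, 764, 1797, 657 and 837, with VIPKO hypoxia 3 far above the others. Postn (chromosome 3, 54361109 to 54391037) ran from 3539 to 5477 with a median of 4367 in WT normoxia. It was 1859, 3154, 3045, 5939.8 and 4205 for WT hypoxia, 5302, 4367, 5019 and 4837 for VIPKO normoxia, and 4211, 5605, 2536, 4847.5 and 5875 for VIPKO hypoxia. VIPKO hypoxia 3 was thus the highest library for Tnc and the lowest of its group for Postn.

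Of the elastic fibre genes Eln had the larger ratio of highest to lowest library, 8.68 against 3.63 for Fbn1. Eln (chromosome 5, 134702593 to 134747323), the gene of the elastic core, had a signal of 4463 at the lowest, 5385 at the median and 6808 at the highest in WT normoxia. It was 1902, 2235, 2974, 15825 and 3921 for WT hypoxia and 2186, 2460.4, 5205 and 1823 for VIPKO normoxia. The VIPKO hypoxia values were 9260.1, 9115, 6865, 6576 and 5156. Of the WT hypoxia libraries 4 were below every WT normoxia library and 1, WT hypoxia 4, was the highest of all 20, while 3 of the 4 VIPKO normoxia libraries were below every WT normoxia and every VIPKO hypoxia library. For this reason the WT hypoxia mean of 5372 ± 5895 (SD, n = 5) describes no library of that group, and its median was 2974.

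Fbn1 (chromosome 2, 125300594 to 125507993), the gene of the microfibril scaffold, ran from 4633 to 7317 with a median of 6385 in WT normoxia. It was 2122, 3206.5, 4109.5, 7699 and 5022 for WT hypoxia, 4898, 4567, 6559 and 4276 for VIPKO normoxia, and 5817, 6232, 4286, 4572.5 and 6310.4 for VIPKO hypoxia. The groups overlapped, with WT hypoxia 4 high and WT hypoxia 1 low. Fn1, Tnc, Eln, Fbn1, Vcan, Hapln1, Aspn and Ogn overlap other annotated genes, and the counting strand is not given in the sources used here, so reads of those genes may be included.

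The first comparison asked how both changes together, VIPKO and hypoxia, set the lung apart from WT normoxia. Hapln1 rose by 2.30 ± 0.33 (adjusted p = 0.00023), a ratio of means of 5.21. Aspn rose by 1.71 ± 0.32 (adjusted p = 0.00199, ratio 3.24), Cthrc1 by 1.12 ± 0.19 (adjusted p = 0.00101, ratio 2.24) and Fn1 by 0.67 ± 0.17 (adjusted p = 0.0142, ratio 1.58). These were 4 of 10 genes, with none lower, where 6.39% of all genes tested rose, 5.91% fell and 12.3% changed in either direction. The libraries of these groups did not overlap for the same 4 genes, all higher, as for 4.24% of all genes. The median change of the 10 was 0.46, against 0.01 over all genes. These 4 calls held with each of the 11 libraries left out in turn and under each of the 11 other settings, with the largest adjusted p at 0.0426, for Fn1. The other 6 genes did not pass with equal library weights, with changes from -0.20 ± 0.23 for Fbn1 to 0.51 ± 0.31 for Tnc. In the same comparison 7 of 9 adipocyte markers rose (median 3.66), with summed signals of 4165 to 10700 in VIPKO hypoxia against 2043 to 3289 in WT normoxia. Of 12 fibroblast markers 1 rose (median 0.12), and of 6 leukocyte markers 3 rose and 1 fell (median 0.31). The part of these markers in the result was not tested.

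**Figure D2:**
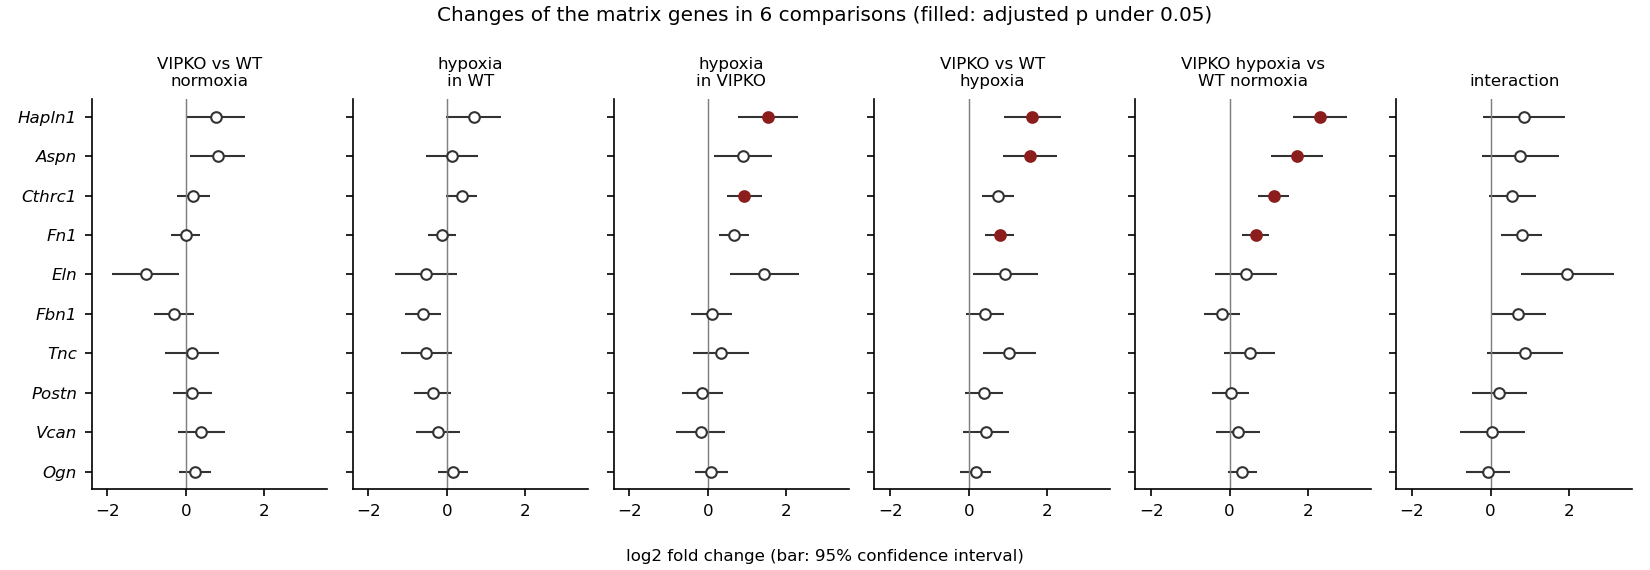
Log2 fold changes (horizontal axes, with 95% confidence intervals) of the 10 genes in 6 comparisons, where filled points have an adjusted p under 0.05. Filled points are all to the right of 0, with 4 for VIPKO hypoxia against WT normoxia, 3 for VIPKO against WT in hypoxia, 2 for hypoxia in VIPKO and 0 in the other panels.

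The second comparison was of VIPKO with WT lungs under hypoxia. Aspn rose by 1.57 ± 0.33 (adjusted p = 0.0246), Hapln1 by 1.62 ± 0.35 (adjusted p = 0.0265) and Fn1 by 0.79 ± 0.17 (adjusted p = 0.0286). The count was 3 of 10, where 0.716% of all genes tested rose, 0.9% fell and 1.62% changed in either direction. For Hapln1 and Aspn the groups did not overlap, as for 1.81% of all genes in that direction. All 10 changes were positive, with a median of 0.77 against 0.02 over all genes. The share of positive changes over all genes was not counted. Some of the 10 varied together within groups (r of 0.83 between Eln and Fbn1), so the signs are not 10 separate observations. The 8 smooth muscle markers had a median of 0.82 here, with none past the threshold, and the 12 fibroblast markers one of 0.21. That of the 6 pericyte markers was 0.19 (1 rose) and that of the 9 adipocyte markers -0.85. The part of these markers in the changes was not tested. Cthrc1 (0.75 ± 0.20, adjusted p = 0.0602), Tnc (1.03 ± 0.32, adjusted p = 0.0979) and Eln (0.93 ± 0.40, adjusted p = 0.209) did not pass, and Ogn had the smallest change (0.17 ± 0.19).

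These 3 calls lie near the threshold. Without the library labelled VIPKO hypoxia 4 the adjusted p was 0.0721 for Aspn, 0.0730 for Hapln1 and 0.0680 for Fn1, with changes of 1.42, 1.52 and 0.80. All 3 calls were also lost on leaving out WT hypoxia 1, WT hypoxia 3 (each alone) or VIPKO hypoxia 2 or 5, that of Aspn without WT hypoxia 2, that of Hapln1 without VIPKO hypoxia 1 and that of Fn1 without either of these last 2, with adjusted p of at most 0.0721, 0.0730 and 0.0709 in the order Aspn, Hapln1 and Fn1. Without the 3 libraries lowest on the first principal component they were 0.0833, 0.0782 and 0.0818, and with the compared groups alone 0.123, 0.106 and 0.149. Without WT hypoxia 5 and VIPKO hypoxia 3 all 3 genes passed, with changes of 1.95, 1.84 and 0.86 (adjusted p = 0.00750, 0.0143 and 0.0231). Cthrc1 passed without VIPKO hypoxia 1 (adjusted p = 0.0412), and library weights added Cthrc1 (adjusted p = 0.0461), Tnc (0.0216), Eln (0.0239) and Postn (0.0398). Under those weights 1926 of the 21658 genes passed (801 higher and 1125 lower).

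Hypoxia in VIPKO lungs was the third comparison. Cthrc1 rose by 0.93 ± 0.21 (adjusted p = 0.0359) and Hapln1 by 1.54 ± 0.37 (adjusted p = 0.0484), so 2 of 10 genes were higher where 0.614% of all genes rose, 0.383% fell and 0.997% changed in either direction. Cthrc1 and Fn1 had groups that did not overlap, as 2.7% of all genes did in that direction, but Fn1 did not pass (0.67 ± 0.18, adjusted p = 0.1005). Eln had a change of 1.43 ± 0.42 (adjusted p = 0.128), with means of 2918.5 ± 1546 (SD, n = 4) in normoxia and 7394.5 ± 1761 (SD, n = 5) in hypoxia. The changes of Fbn1, Postn, Vcan and Ogn lay between -0.18 and 0.10. Each of the 2 calls was lost without 6 of the 9 libraries. For Hapln1 these were VIPKO normoxia 1, 2 and 3 and VIPKO hypoxia 1, 4 and 5 (adjusted p up to 0.176), and for Cthrc1 VIPKO normoxia 1, 3 and 4 and VIPKO hypoxia 3, 4 and 5 (adjusted p up to 0.175). With the compared groups alone the adjusted p was 0.104 for Hapln1 and 0.153 for Cthrc1, and that of Fn1 was 0.0369. Library weights added Fn1 (adjusted p = 0.0148) and Eln (adjusted p = 0.0158), where 717 of the 21658 genes passed (475 higher and 242 lower).

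In normoxia none of the 10 genes passed between VIPKO and WT, where 8.65% of all genes did (4.69% higher and 3.96% lower). An unadjusted p under 0.05 was found for 3 of 10, near the share of 25.3% over all genes. The 3 were Eln (-1.03 ± 0.41, adjusted p = 0.118), Aspn (0.81 ± 0.34, adjusted p = 0.137) and Hapln1 (0.77 ± 0.36, adjusted p = 0.184). Fn1 had a change of -0.00 ± 0.18, with a 95% confidence interval of -0.37 to 0.37. Fitted on the compared groups alone, Eln (adjusted p = 0.0198) and Aspn (adjusted p = 0.0491) passed, where 2201 of the 21658 genes did. With library weights Eln (adjusted p = 0.00944), Aspn (0.0120) and Hapln1 (0.0310) passed, where 5448 of the 21658 genes did (2740 higher and 2708 lower).

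In WT lungs hypoxia left none of the 10 past the threshold, where 14.7% of all genes passed (7.88% higher and 6.77% lower). Fbn1, with a change of -0.61 ± 0.23 (adjusted p = 0.0707), was the 1 gene of the 10 with an unadjusted p under 0.05. Over all genes 33.0% had one. Eln (-0.52 ± 0.38), Tnc (-0.52 ± 0.31) and Postn (-0.36 ± 0.23) were lower on average, and Hapln1 (0.68 ± 0.33) and Cthrc1 (0.38 ± 0.19) higher, none past the threshold. The median of the 10 was -0.17. With library weights Fbn1 (adjusted p = 0.00294), Tnc (0.0236), Postn (0.0249) and Eln (0.0258) passed as lower and Hapln1 (0.0164) as higher. Under those weights 6590 of the 21658 genes passed (3259 higher and 3331 lower).

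WT hypoxia was the most variable group for these genes. The median coefficient of variation of the 10 genes was 41.0% there, against 15.8% in WT normoxia, 19.5% in VIPKO normoxia and 26.35% in VIPKO hypoxia. It was not computed over all genes, so whether this spread is particular to the 10 was not tested. WT hypoxia 1 was the lowest of its group for 9 of the 10 genes, and WT hypoxia 4, the shallowest library, the highest for 7. Markers of several cell types also differed between these libraries, some in the same order and some in the opposite one. The summed signal of the 12 fibroblast markers was 44460 in WT hypoxia 1 and 89490 in WT hypoxia 4, that of the 8 smooth muscle markers 3175 and 20020, and that of the 6 pericyte markers 5824 and 17470. These were the lowest and the highest sums of that group in each list. The 8 cardiac muscle markers summed to 897.7 in WT hypoxia 1, the lowest of the group, and to 10670 in WT hypoxia 4. Their highest sum in that group was 15400, in WT hypoxia 5. The opposite order was seen for the 7 lung epithelium markers (795400 in WT hypoxia 1 and 379100 in WT hypoxia 4), the 6 leukocyte markers (112300 and 75360) and the 6 mesothelium markers (14280 and 6115). In WT normoxia the fibroblast sum ran from 60610 to 73360 and the smooth muscle sum from 7144 to 19320. In VIPKO normoxia these sums ran from 60460 to 66040 and from 7348 to 16480, and in VIPKO hypoxia from 59810 to 84500 and from 8425 to 17200. No marker of the fibroblast, smooth muscle or pericyte lists was at 0 in any library, and the part of any of these lists in the differences was not tested. The 9 adipocyte markers, which rose in WT hypoxia in 9 of 9 cases, summed to 4890 to 29600 there and 2043 to 3289 in WT normoxia, and their part was not tested either.

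**Figure D3:**
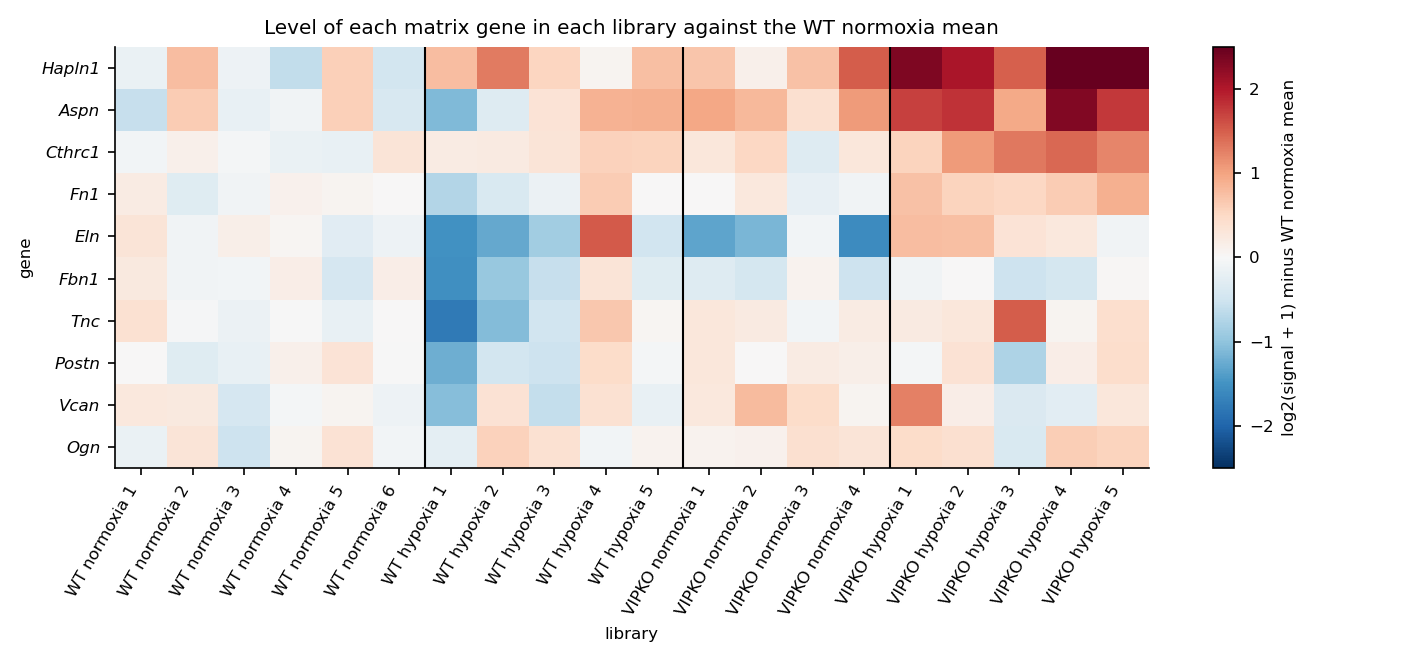
Level of each gene (rows) in each of the 20 libraries (columns) as log2(signal + 1) minus the WT normoxia mean, with red above and blue below it and black lines between groups. Blue cells gather in WT hypoxia 1, and the darkest red cells are those of Hapln1 and Aspn in VIPKO hypoxia, except in VIPKO hypoxia 3.

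WT hypoxia 4 was the highest of its group for 7 of the 10 genes. Leaving it out lowers WT hypoxia for those genes by construction, so the larger changes below are no separate support. Without WT hypoxia 4 the falls under hypoxia in WT passed the threshold for Eln (-1.04 ± 0.24, adjusted p = 0.00794), Fbn1 (-0.84 ± 0.19, adjusted p = 0.00702) and Tnc (-0.82 ± 0.28, adjusted p = 0.0400). These were 3 of 10, where 4710 of the 21658 genes passed (2449 higher and 2261 lower). Leaving out the same library, VIPKO exceeded WT in hypoxia for 6 of the 10 genes, where 588 of the 21658 genes passed (249 higher and 339 lower). Fn1 (0.98 ± 0.14, adjusted p = 0.00183), Aspn (1.75, adjusted p = 0.0111) and Hapln1 (1.46, adjusted p = 0.0364) stayed past the threshold, and Eln (1.44 ± 0.25, adjusted p = 0.00701), Tnc (1.33 ± 0.29, adjusted p = 0.0214) and Cthrc1 (0.80 ± 0.21, adjusted p = 0.0492) joined them. The count of all genes called for hypoxia against normoxia in WT was 4710 without it, against 3173 with it, and that for the interaction was 541 against 61. Leaving out WT hypoxia 1 instead, none of the 10 passed for hypoxia in WT or between the genotypes in hypoxia. Between the genotypes 102 of the 21658 genes then passed (47 higher and 55 lower). The changes for hypoxia in WT were then -0.27 for Eln, -0.37 for Fbn1 and -0.21 for Tnc, the smallest falls with any library left out.

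The interaction asks whether the response to hypoxia differed between the genotypes. None of the 10 genes passed with equal weights on all libraries, where 0.282% of all genes did (0.134% positive and 0.148% negative). Of the 10, 3 had an unadjusted p under 0.05, as did 14.2% of all genes. The largest value was that of Eln, 1.96 ± 0.57 (adjusted p = 0.124), followed among these 3 by Fn1 (0.79 ± 0.25, adjusted p = 0.152) and Fbn1 (0.71 ± 0.34, adjusted p = 0.345). With all 20 libraries under library weights, Eln (2.32 ± 0.43, adjusted p = 0.00476), Fn1 (0.97 ± 0.20, adjusted p = 0.00732) and Fbn1 (1.03 ± 0.27, adjusted p = 0.0232) passed, where 2228 of the 21658 genes did. Without WT hypoxia 4, Eln (2.47 ± 0.35, adjusted p = 0.00346) and Fn1 (0.98 ± 0.19, adjusted p = 0.0165) passed, where 541 of the 21658 genes did. Without WT hypoxia 1 none of the 10 passed, with values of 1.71 for Eln and 0.64 for Fn1. Of the 10 values with equal weights on all libraries 9 were positive, the exception being Ogn (-0.06 ± 0.27). Their median was 0.73 against 0.01 over all genes. Here too the signs are not separate observations, and the share of positive values over all genes was not counted. Marker medians in the interaction were 0.83 for smooth muscle, 0.45 for pericytes, 0.27 for fibroblasts and -3.61 for adipocytes. The part of these markers was not tested.

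**Figure D4:**
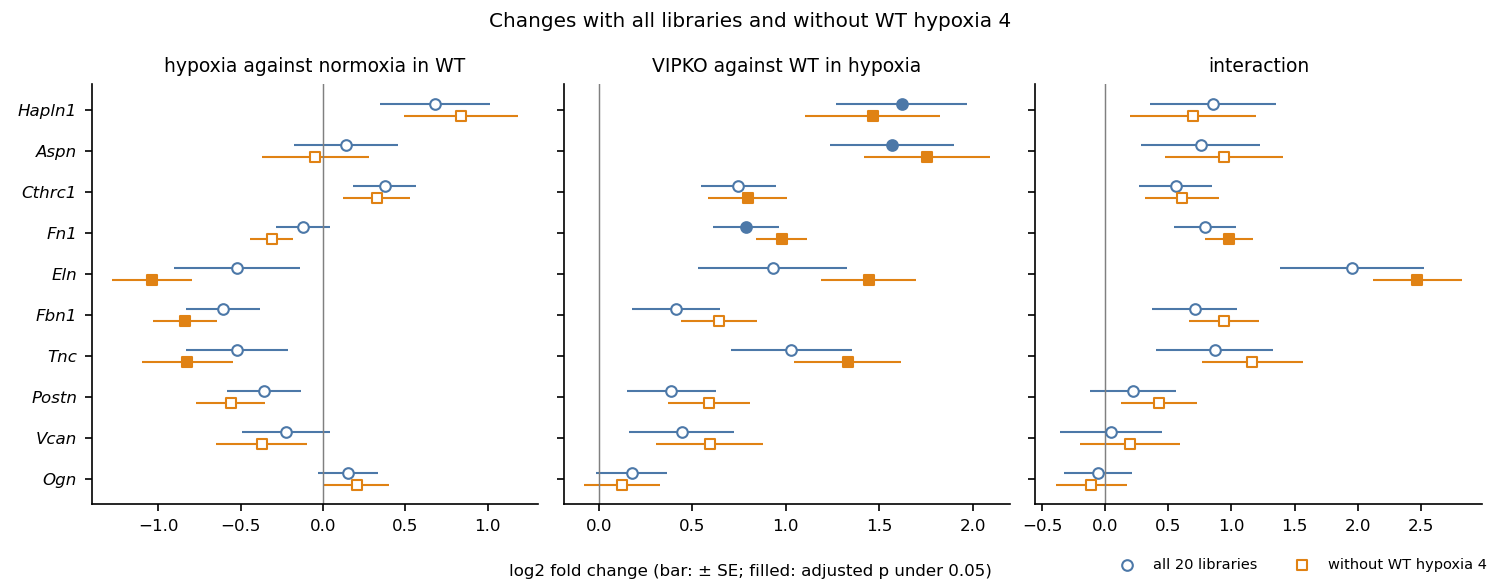
Log2 fold changes ± SE (horizontal axes) of the 10 genes with all 20 libraries (circles) and without WT hypoxia 4 (squares), filled where the adjusted p is under 0.05. Without that library, which was the highest of its group for 7 of the 10 genes, Eln, Fbn1 and Tnc lie further left for hypoxia in WT. Eln moves from 1.96 to 2.47 in the interaction.

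Other matrix genes were read from 6 lists, with 82 genes tested, chosen with earlier results of these data known. From WT normoxia to VIPKO hypoxia 11 of the 82 rose and 10 fell, with a median of 0.11, where 6.39% of all genes rose and 5.91% fell, with a median of 0.01. Among the elastic fibre genes 3 rose and 3 fell of 17. Lox, the enzyme that cross-links elastin and collagen, rose by 1.03 ± 0.17 (adjusted p = 0.00073) and Fbln2, which codes for the fibrillin-binding fibulin 2, by 1.10 ± 0.19 (adjusted p = 0.00121), while Ltbp3, a latent TGF-beta binding protein gene, fell by 0.55 ± 0.10 (adjusted p = 0.00117). Lox was also the only one of the 82 to pass in the interaction (1.23 ± 0.25, adjusted p = 0.0397). Its signal for VIPKO hypoxia was 3370, 2744, 2269, 2598 and 2207, above the 1898 of its highest library in the other groups.

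Of the 10 other small leucine-rich proteoglycan genes tested 3 rose and none fell in the same comparison, with a median of 0.55. They were Podn (0.71 ± 0.15, adjusted p = 0.00527), Bgn (0.50 ± 0.16, adjusted p = 0.0412) and Dcn (0.61 ± 0.19, adjusted p = 0.0449), which code for podocan, biglycan and decorin. Dcn rose in both single comparisons with WT normoxia, by 1.07 ± 0.19 with hypoxia in WT (adjusted p = 0.00334) and by 0.84 ± 0.21 in VIPKO normoxia (adjusted p = 0.0191). Aspn did not pass in these. Whether Aspn and Dcn differ in these changes was not tested.

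Among 17 matricellular genes 4 rose and 1 fell from WT normoxia to VIPKO hypoxia, with a median of 0.35. Tgfbi, a collagen-binding protein gene, rose by 0.96 ± 0.16 (adjusted p = 0.00064), Sparcl1 by 0.86 ± 0.14 (adjusted p = 0.00055) and Sparc, a collagen chaperone of the matrix, by 0.54 ± 0.12 (adjusted p = 0.00643). Of 14 genes of the hyaluronan and versican network 1 rose, Cd44, the hyaluronan receptor (0.39 ± 0.11, adjusted p = 0.0295), and 3 fell, among them the hyaluronan synthase Has3 (-0.47 ± 0.14, adjusted p = 0.0285) and the hyaluronidase Hyal1 (-0.55 ± 0.17, adjusted p = 0.0390). None of the 12 matrix receptor genes, integrins and syndecans, passed. Of 12 basement membrane genes 3 fell and none rose, namely Hspg2, the perlecan gene (-0.48 ± 0.13, adjusted p = 0.0171), Lama5, a laminin chain (-0.37 ± 0.08, adjusted p = 0.00531), and Agrn, the agrin gene (-0.34 ± 0.09, adjusted p = 0.0241).

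**Figure D5:**
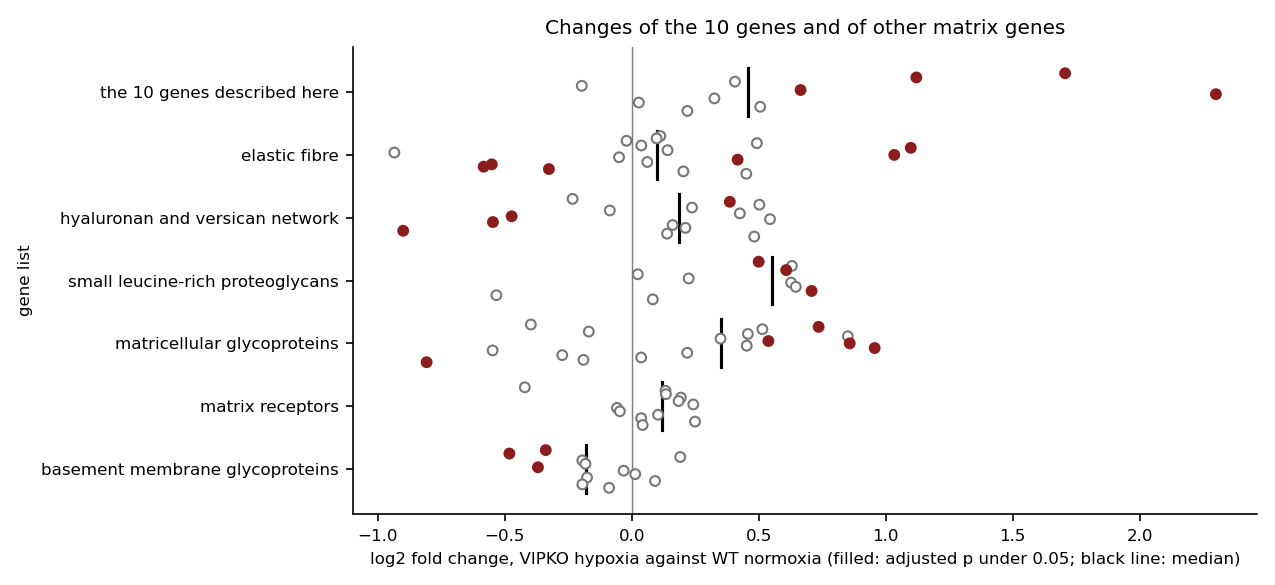
Log2 fold change from WT normoxia to VIPKO hypoxia (horizontal axis) for the 10 genes and for the 82 tested genes of 6 other matrix lists (rows), with filled points at an adjusted p under 0.05 and a black line at each median. Filled points lie only to the right for the 10 genes and the small leucine-rich proteoglycans, and only to the left for the basement membrane genes.

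With hypoxia in VIPKO 3 of the 82 genes rose and 1 fell, where 0.614% of all genes rose and 0.383% fell. Lox (1.32 ± 0.19, adjusted p = 0.00076), Fbln2 (1.17 ± 0.21, adjusted p = 0.00690) and Hyal2 (0.54 ± 0.12, adjusted p = 0.0248) rose, and Itga4, an integrin chain that binds fibronectin, fell (-0.65 ± 0.15, adjusted p = 0.0466). Between VIPKO and WT in hypoxia, where 0.716% of all genes rose and 0.9% fell, 3 rose, namely Lox (0.95 ± 0.18, adjusted p = 0.0153), Sparcl1 (0.63 ± 0.14, adjusted p = 0.0322) and Hmmr, a hyaluronan receptor also known for its part in cell division (1.28 ± 0.32, adjusted p = 0.0445). Ltbp3, Lama5 and Itih5 fell there. In WT lungs 9 rose and 4 fell with hypoxia, where 7.88% of all genes rose and 6.77% fell. Thbs1, the thrombospondin 1 gene, fell by 0.86 ± 0.21 (adjusted p = 0.0154), and Podn (0.71 ± 0.15, adjusted p = 0.00744) and Fbln5 (0.43 ± 0.09, adjusted p = 0.00584) rose. In normoxia VIPKO lungs had 3 of the 82 higher (Dcn, Tgfbi and Hmmr) and 4 lower (Lama5, Agrn, Ltbp3 and Hyal2), where 4.69% of all genes were higher and 3.96% lower.

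Within groups, the genes varied together to different degrees. After the group means were taken off, Pearson's r over the 20 libraries was 0.83 between Eln and Fbn1, 0.75 between Fn1 and Fbn1 and 0.74 between Fn1 and Postn. The values of Hapln1 were lower, with r of -0.37 with Fn1 and -0.46 with Eln, and it was 0.65 with Ogn. The libraries share tissue composition and depth, so these values only describe them. Among all other genes tested the most alike to Fn1 by this measure were Sh3pxd2b (0.89), Ltbp2 (0.87) and Pcdhb9 (0.86), and to Eln Adamts17 (0.93), Adamts4 (0.90) and Spon2 (0.90). For Aspn they were Fbln1 (0.86), Dpy19l1 (0.85) and Cacna2d1 (0.85), and for Hapln1 Qk (0.85), Zfp354c (0.85) and Gopc (0.84).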

How the data were processed

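RNA was measured in 20 whole-lung libraries. Total RNA came from an RNeasy kit and libraries from a directional kit, per the labels' protocols. Partek and mm10 are named, per the submitters' processing notes. The sources used here do not give the aligner, the counting strand or the normalization method. The authors deposited normalized gene counts, treated here as a signal. Of 30746 lines 55 had no gene name (0.00487% to 0.0187% of the signal) and 133 repeated a name. Low values (up to 20 reads) fell within 0.05 reads of whole multiples of 1 step per library for 81.4% to 89.1% of values in 19 libraries, which gave the estimated depths. In VIPKO hypoxia 2 the share was 40.3%, so its depth is uncertain. Whole reads were therefore not assumed, and no count model was used in the main fit. Only the voom setting named below took estimated reads, with those of VIPKO hypoxia 2 included.

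The pseudocount was 1, and a gene needed a signal of 10 or more in 4 or more libraries. Group means were fitted in limma 3.58.1 (R 4.3.3), using its variance trend, and 6 contrasts had Benjamini-Hochberg adjustment at 0.05. The fit was also run on simulated data with independent normal noise and, for each gene, the same spread in every group. The spread of the 10 genes differed between groups here, so that run cannot vouch for the calls. Coordinates come from GENCODE M21 (GRCm38). Python 3.11.15 was used for summaries and plots.

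The 10 members, the lists and the tests were chosen with earlier results of these data known. The naming rule took all members, up to 3 called genes by smallest p per list and comparison, and the 3 most alike genes of 4 members. Alternatives covered pseudocount, filter, rescaling, quantile normalization, library weights, variance trend, compared groups alone, a replicate block and left-out libraries. Voom weights on estimated reads were added after seeing the data.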

Additional observations from a re-analysis of the deposited data

Results flagged for a closer look

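In each group of 4 to 6 libraries the gap between the highest or lowest library and the next, divided by the range, was set against Dixon's 95% critical value on the log2 scale. Of 40 such groups (10 genes in 4 groups) 3 had a library that far out, and chance gives about 1 in 20. Tnc was highest in WT normoxia 1 (812, against at most 628 in the others of its group). In VIPKO hypoxia 3 Tnc was highest of its group at 1797 and Ogn lowest at 2940. That library is also the one with thymic markers at a summed signal of 17180, and the part of those markers was not tested. Without VIPKO hypoxia 3 the change of Tnc for VIPKO against WT in hypoxia was 0.78 (adjusted p = 0.129), against 1.03 with it.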

How the results depend on the processing

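Counts of genes called, and of the 10 matrix genes called, depended on the settings. Library weights gave 5448 genes for VIPKO against WT in normoxia, 6590 for hypoxia in WT, 717 for hypoxia in VIPKO, 1926 between the genotypes in hypoxia, 4684 for VIPKO hypoxia against WT normoxia and 2228 for the interaction, with 3, 5, 4, 7, 5 and 3 of the 10 genes called in that order. The compared groups alone gave 134 genes for hypoxia in VIPKO and 9 for the genotypes in hypoxia, with 2, 1 and 0 of the 10 called for VIPKO against WT in normoxia, hypoxia in VIPKO and VIPKO against WT in hypoxia. The interaction has no such fit, since it needs all groups. No variance trend gave 222 genes between the genotypes in hypoxia and 12 for the interaction. No filter gave 225 for VIPKO against WT in hypoxia and 0 of the 10 for hypoxia in VIPKO. Voom weights gave 599 genes between the genotypes in hypoxia and 275 for the interaction, and 1 of the 10 for hypoxia in VIPKO. Without the skeletal muscle and thymic libraries these were 1065, 292 and 1. Without VIPKO normoxia 2 and 3 and VIPKO hypoxia 2 they were 27, 0 and 0, with 45 genes for hypoxia in VIPKO, 0 of the 10 for VIPKO against WT in hypoxia, and 0 genes by limma for VIPKO against WT in normoxia, where 3091 had an unadjusted p under 0.05. The cause was not tested.

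Replicate numbers were not taken to pair the samples, since correlations of same-numbered libraries, after group means were taken off, were not all above 0.1 in any of the 6 pairs of groups. They ran from -0.289 to 0.41 between VIPKO normoxia and VIPKO hypoxia (mean 0.121, against -0.0353 for other numbers), and had means of 0.0403 for the hypoxia groups and -0.114 to 0.0236 in the other 4 pairs. With the replicate block the genes called were 682, 1544, 90, 149, 1293 and 0 in the 6 comparisons in the order above, with 0 of the 10 called for hypoxia in VIPKO (adjusted p = 0.146 for Hapln1 and 0.100 for Cthrc1) and 1, Aspn, between the genotypes in hypoxia.

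With 1 library left out at a time the genes called were 359 to 2551, 1382 to 4710, 88 to 392, 35 to 1339, 1356 to 2928 and 4 to 541 in that order, and the members called 0 to 0, 0 to 3, 0 to 2, 0 to 6, 4 to 4 and 0 to 2.

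Small changes that passed nowhere took the other sign in some fits. For VIPKO against WT in normoxia Fn1 was 0.018 with quantile normalization and 0.032 with the replicate block (left-out range -0.097 to 0.065). For hypoxia in WT Aspn was -0.049 without the skeletal muscle and thymic libraries and -0.037 with voom weights (-0.049 to 0.45), and Fn1 ran from -0.31 to 0.029. For hypoxia in VIPKO Postn was 0.020 with library weights and 0.065 without those libraries (-0.24 to 0.065), and Vcan 0.062 without VIPKO normoxia 2 and 3 and VIPKO hypoxia 2. For VIPKO hypoxia against WT normoxia Postn was -0.057 without these 3 (-0.074 to 0.23), and Vcan ran from -0.042 to 0.36. In the interaction Ogn was 0.010 with library weights and 0.11 without the skeletal muscle and thymic libraries (-0.16 to 0.12), and Vcan ran from -0.22 to 0.20.

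Depth limits Hapln1 most, at 3 estimated reads in WT hypoxia 4. These depths cover counting error only.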
